A study of Mus musculus with 42 samples.

Results

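Endothelial cells were taken out of the mouse aorta, grown without flow for 5 or 7 days and compared with the endothelial lining of the carotid artery, which was collected directly from the animal under high flow. The comparison used 6 of the 42 samples of the series, chosen by their labels and not by their values: 2 primary cultures that carry no deletion, and 4 pools of intimal RNA from the contralateral, high flow carotid artery 48 hr after partial ligation of the other carotid artery. The first culture came from Cdh5(PAC)-CreERT2; mTmG mice, in which an endothelial Cre driver switches on eGFP, and was sorted for eGFP after 5 days. The second came from the Rbfox2 control mice of the endothelial deletion experiment, whose arteries carry floxed Rbfox2 alleles without Cre, and was sorted for Cd31 and Icam2 after 7 days. Both were flushed out of the vessel with collagenase, grown on collagen I in medium with fetal bovine serum and endothelial growth supplement, and sorted into Trizol in small numbers. Of the 4 high flow pools, 2 came from mice that received a control IgG and 2 from mice that received PBS liposomes, and each pool combined RNA flushed from several arteries. All 6 libraries were made with a low input kit. The labels give the mice behind the pools as C57BL/6J (Jax) and those behind the cultures as C57 background. Per the study's methods, the wild-type mice were males several weeks old and the mice of the Rbfox2 strain were of both sexes and some months old, so age and sex differed too. The age of the eGFP mice is not given apart from these. Artery (aorta or carotid), isolation (enzyme and sort or direct flush), time outside the animal and absence of flow all changed together between the arms, so their parts in any difference cannot be told apart. Nothing in the labels ties the 2 cultures to one another or the pools to separate cages or days, so the p-values measure the spread between these samples, and the cultures are 1 library for each genotype, sort and read length.

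The arterial endothelium is a single layer of flattened cells that rarely divide and that sense the drag of flowing blood. Steady laminar flow holds these cells quiescent through the transcription factors KLF2 and KLF4 and the MEK5-ERK5 pathway, and keeps up the production of nitric oxide. In the body the layer is also exposed to smooth muscle, blood cells, insulin and daily rhythms. Cells that are removed and plated on a stiff, open surface in serum lose these inputs, spread, migrate and enter the cell cycle, which makes the cultured cell a common but altered stand-in for the intimal cell.

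Between 9598893 and 14556377 counts per library fell on genes in the cultures and between 12286104 and 14084701 in the high flow pools. The eGFP-sorted culture was sequenced in 2 runs of 100 bp reads that differed by little more than counting noise (chi-square per degree of freedom 1.07) and were added together. The Rbfox2 control culture and the 4 high flow pools were sequenced as 150 bp reads. The 2 cultures differed by gene length, in step with read length: the median log2 ratio of the eGFP-sorted to the Rbfox2 control culture fell from 1.23 in the fifth of genes with the shortest transcripts to −1.41 in the fifth with the longest. The same slope, 1.09 to −1.03, appeared between the untreated high flow pools (100 bp) and the 4 high flow pools used here (150 bp), which are all fresh intima. Genotype, sort and days in culture differ between the cultures as well, and their parts cannot be told apart. Levels are given below as FPKM, computed from the counts, effective gene lengths and library totals, and always in the order eGFP-sorted culture, Rbfox2 control culture, and then the high flow pools IgG 1, IgG 2, PBS 1 and PBS 2. Counts were compared with edgeR's quasi-likelihood test, and a gene is called raised or lowered in culture at an adjusted p under 0.05.

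**Figure D1:**
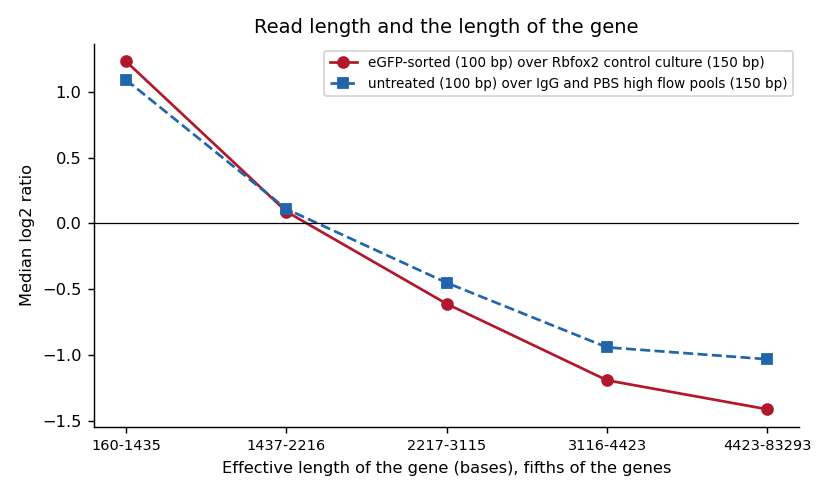
Median log2 ratio between libraries of 100 bp and 150 bp reads (vertical axis) over 5 equal groups of the genes ordered by effective length in bases (horizontal axis), for the 2 cultures (red circles) and for untreated against IgG and PBS high flow pools (blue squares). Both lines fall from above 1 in the shortest genes to below −1 in the longest.

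Because each culture had intima of its own read length elsewhere in the series, the comparison was repeated with 7 high flow pools (3 untreated pools of 100 bp reads and the 4 pools of 150 bp reads) and read length as a term. In addition, the eGFP-sorted culture alone was set against the 3 untreated high flow pools, and the Rbfox2 control culture alone against the 2 high flow pools of Rbfox2 control mice at 7 days after ligation, each within 1 read length. The first is called the read length fit below and the others the within-read-length comparisons.

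Sequence near the start of some genes of the lists described below is shown with the binding motifs known for these programs. Windows of 250 bases before each RefSeq start were searched on both strands, and the motifs were picked after the promoters of these lists had been read, so the shares in the lists follow in part from that choice. CATTCC, the core of the site bound by TEAD factors with their coactivators YAP and TAZ, lay in 12.6% of 32851 windows and in 10 of the 14 windows of the YAP and TAZ list (71.4%). Of the 9 genes that held it 1 was raised in culture, beside 1 raised gene of the list that had a window. CCAAT, the box bound by NF-Y, which works together with SREBP2 at sterol genes, lay in 33.8% of all windows and in 15 of the 18 windows of the cholesterol synthesis list (83.3%), and 9 of the 15 genes that held it were raised. The E2F sites TTTGGCGC or TTTCCCGC lay in 1.3% of windows and in 5 of 31 windows of DNA replication genes (16.1%), of which 3 were raised, beside 19 raised replication genes that had a window. TTTGAA, the cell cycle homology region of late cell cycle genes, lay in 16% of windows and in 12 of 33 windows of mitosis genes (36.4%). None of the 11 genes that held it was raised, beside only 1 raised mitosis gene that had a window. That count is too small to set the motif against the calls, and with the read length fit 31 of 36 mitosis genes were raised. A match is a description of the letters and does not show that a factor was bound. The last 170 bases before the start follow, 5′ to 3′, for a gene or a pair of each kind, with the motif in capitals. Of these genes, Mcm6 and Top2a did not pass the test.
Ankrd1 (GRCm38.p6 chr19:36119845-36120014, minus strand, CATTCC on the other strand): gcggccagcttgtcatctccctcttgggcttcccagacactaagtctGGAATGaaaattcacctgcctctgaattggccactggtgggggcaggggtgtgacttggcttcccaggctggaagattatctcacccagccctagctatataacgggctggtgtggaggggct
Cyp51 (GRCm38.p6 chr5:4104698-4104867, minus strand, CCAAT): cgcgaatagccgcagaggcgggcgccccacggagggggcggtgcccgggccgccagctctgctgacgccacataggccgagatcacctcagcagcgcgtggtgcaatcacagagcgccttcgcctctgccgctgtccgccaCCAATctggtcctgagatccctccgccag
Idi1 (GRCm38.p6 chr13:8885436-8885605, plus strand, 2 matches of CCAAT on the other strand): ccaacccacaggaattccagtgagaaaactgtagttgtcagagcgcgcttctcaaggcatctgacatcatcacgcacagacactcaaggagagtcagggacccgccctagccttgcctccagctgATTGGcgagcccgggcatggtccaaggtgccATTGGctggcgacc
Mcm5 (GRCm38.p6 chr8:75109339-75109508, plus strand, TTTGGCGC on the other strand): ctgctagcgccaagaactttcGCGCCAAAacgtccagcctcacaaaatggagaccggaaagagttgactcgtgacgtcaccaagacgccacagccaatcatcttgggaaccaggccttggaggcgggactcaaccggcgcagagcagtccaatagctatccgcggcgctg
Mcm6 (GRCm38.p6 chr1:128359706-128359875, minus strand, 2 matches of TTTGGCGC): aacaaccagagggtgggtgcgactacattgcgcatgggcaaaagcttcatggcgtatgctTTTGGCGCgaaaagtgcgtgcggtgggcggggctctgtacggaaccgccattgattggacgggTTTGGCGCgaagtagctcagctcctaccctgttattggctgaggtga
Top2a (GRCm38.p6 chr11:99024190-99024359, minus strand, TTTGAA on the other strand): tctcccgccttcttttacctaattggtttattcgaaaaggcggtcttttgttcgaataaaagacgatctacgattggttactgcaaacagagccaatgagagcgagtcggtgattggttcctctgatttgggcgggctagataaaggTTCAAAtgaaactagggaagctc

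The cultures were endothelial by their markers. All 20 genes of the endothelial identity list were detected in both cultures, with a summed level of 3866 and 4984 FPKM against 6475 to 8077 FPKM in the high flow pools. Cdh5, which encodes VE-cadherin and whose promoter drives the Cre of the eGFP mice, was at 62 and 68.3 FPKM in the cultures and at 51.3, 48.8, 29.6 and 21.6 FPKM in the pools, and did not pass the test (1.88-fold higher, edgeR adjusted p = 0.175). Icam2, one of the proteins used in the second sort, was at 634 and 285 FPKM against 847, 674, 835 and 954 FPKM, and did not pass either (1.52-fold lower, adjusted p = 0.397). Erg, an endothelial transcription factor, stood at 10.2 FPKM in both cultures, within the range of the pools.

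Within that identity, some endothelial genes differed. Pecam1 (mm9, chromosome 11, 106515531 to 106611942), the adhesion molecule CD31 that was also a sort marker, was at 253 and 373 FPKM in the cultures against 2775, 2984, 2316 and 1638 FPKM in the pools. Both cultures lay below every pool, and the gene was 7.29-fold lower (log2 fold-change −2.87 ± 0.43 SE, edgeR adjusted p = 0.00868). Tek (mm9, chromosome 4, 94405980 to 94541667), the receptor TIE2 that keeps vessels stable, was at 15.7 and 19.2 FPKM against 294, 299, 358 and 268 FPKM, which is 16-fold lower (log2 fold-change −4.00 ± 0.39 SE, adjusted p = 0.00339). In the other direction, the sialomucin gene Emcn was at 480.2 and 727 FPKM against 46, 87.2, 72.3 and 113 FPKM, 8.1-fold higher (adjusted p = 0.00637), and Cd34, another sialomucin, was 2.1-fold higher (adjusted p = 0.0432). Of the 20 genes, 2 rose, 2 fell and 16 did not pass, beside 9.36% raised and 7.79% lowered among the 12561 genes tested, and with the read length fit 5 rose and 9 fell beside 18.2% raised and 18.5% lowered among 13199 genes. Vwf, the von Willebrand factor gene, spread too widely to call, from 15.7 to 120.4 FPKM in the cultures and from 97.4 to 526 FPKM in the pools.

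**Figure D2:**
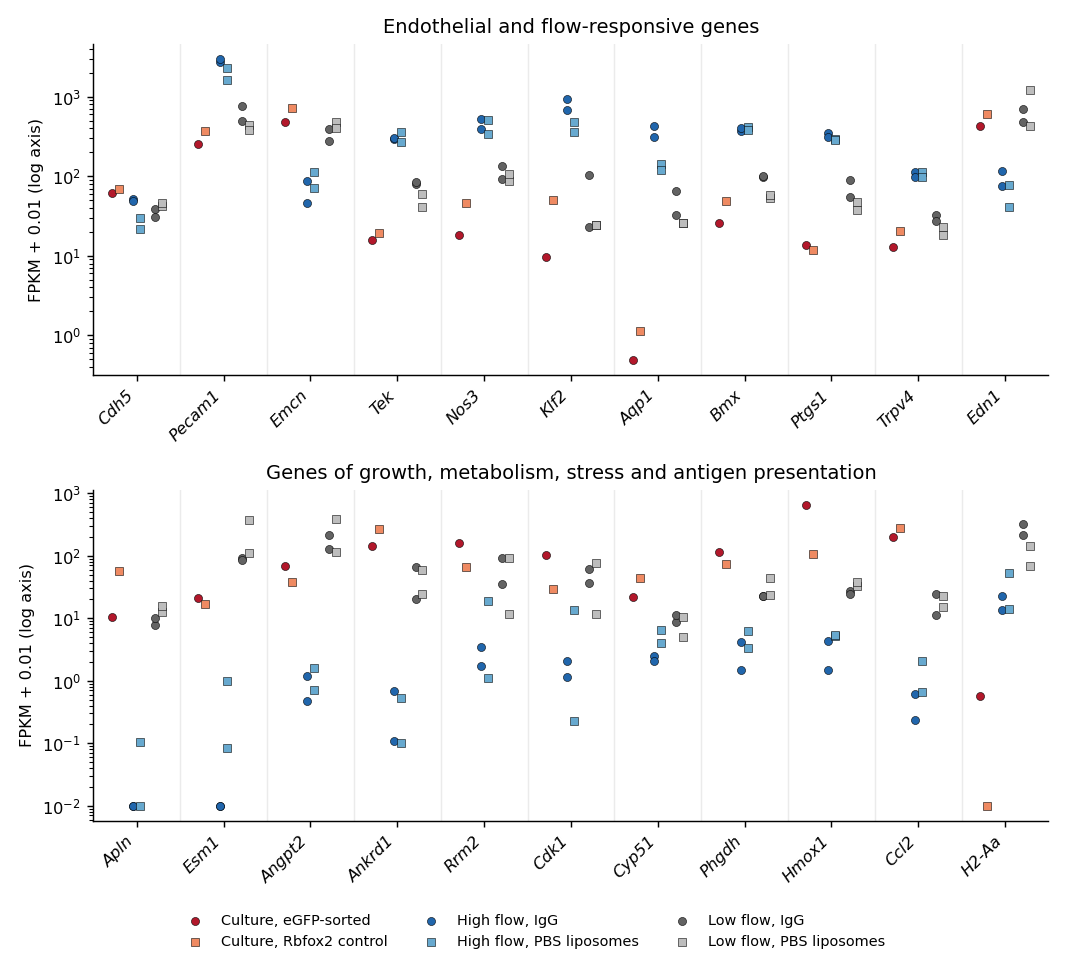
FPKM plus 0.01 on a log axis for 22 genes in each library, with cultures in red, high flow pools in blue and low flow pools in grey, and circles and squares for the 2 groups of each kind. Cdh5 lies above every high flow pool in both cultures, although it did not pass the test. Tek, Aqp1 and Ptgs1 are lower in both cultures than in the high flow pools, and Apln, Ankrd1 and Ccl2 are higher. Ccl2 was also called higher in culture than in the low flow pools.

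Markers of several cell types that travel with a flushed intima were lower in the cultures. Of the 7 erythrocyte genes tested, 5 fell and none rose, and their summed level was 10.1 and 0.639 FPKM in the cultures against 977 to 5848 FPKM in the pools. The adipocyte list summed to 0.571 and 0 FPKM against 80.1 to 179 FPKM, and 7 of the 8 members tested fell. Fibroblast genes summed to 54.3 and 132 FPKM against 600.1 to 779 FPKM, with 9 of 12 lowered (3 to 11 with 1 library left out in turn), among them Clec3b, Dpt, Col1a1 and Pi16. Pi16, a surface protein of adventitial fibroblasts, was at 4.76 and 6.31 FPKM in the cultures against 198, 149, 84.4 and 82.2 FPKM in the pools. Lymphocyte genes (2 of 6 lowered), platelet genes (3 of 7), neutrophil genes (1 of 3) and Schwann cell genes (1 of 4) had no raised member. These calls rested on single libraries: with 1 library left out in turn, no lymphocyte gene and 0 to 2 platelet genes were called. The platelet sums overlapped, at 21.1 and 9.27 FPKM in the cultures against 16.1 to 48 FPKM in the pools. In bulk samples fewer cells of a type and less RNA per cell cannot be told apart.

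Macrophage markers did not separate the arms. The list summed to 23.4 FPKM in the eGFP-sorted culture, 345 FPKM in the Rbfox2 control culture and 73.6 to 268 FPKM in the pools, and none of 13 members passed. Lyz2, the lysozyme of myeloid cells, was at 1.37 and 313 FPKM in the cultures and at 46.3, 199, 73.6 and 157 FPKM in the pools. C1qb, a complement gene of tissue macrophages, was at 0 and 8.01 FPKM against 5.86 to 16.9 FPKM, so the Rbfox2 control culture carried macrophage transcripts at the level of the fresh intima and the eGFP-sorted culture did not. The sorted Rbfox2 EC-KO culture, made like the Rbfox2 control culture, had 0.551 FPKM of Lyz2. The part of these transcripts in the results below was not tested. Skeletal muscle genes summed to 4.69 and 31.7 FPKM against 0.819 to 4.8 FPKM, with 1 of 2 members raised, and thyroid genes to at most 0.0828 FPKM in the cultures, with the single member tested not passing.

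**Figure D3:**
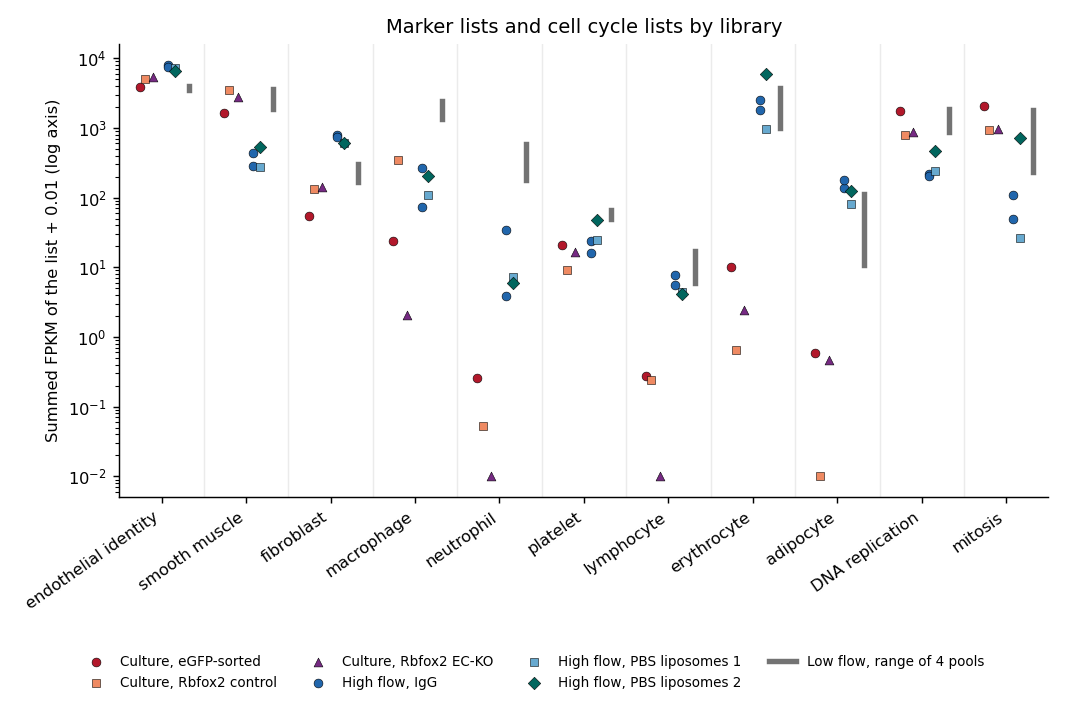
Summed FPKM plus 0.01 of marker and cell cycle lists on a log axis, with cultures in red, orange and purple, high flow pools in blue and dark green and the range of the 4 low flow pools as a grey bar. Erythrocyte, adipocyte, lymphocyte and neutrophil lists are lowest in the cultures, the macrophage list differs between the cultures, and the high flow pool PBS 2 (dark green) stands above the other high flow pools in both cell cycle lists.

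Over all genes, 1176 were raised and 978 lowered in culture, or 9.36% and 7.79% of those tested, and 4557 genes had an unadjusted p under 0.05. The counts of list members are to be read beside these shares. Those of the read length fit are to be read beside 18.2% raised and 18.5% lowered. Of the raised genes, 1086 had both cultures above all 4 pools, and of the lowered genes all 978 had both below, while without regard to the test 19.1% of genes had both cultures above every pool and 23.9% had both below. Every called gene differed by at least a log2 fold-change of 1. The read length fit called more genes, 2399 raised and 2443 lowered, and among them were 1018 of the 1176 and 943 of the 978. These fits and the within-read-length comparisons reuse the 2 cultures in which the genes were called, so the counts that follow describe the calls and are no independent support. Of the 1156 raised genes tested in both within-read-length comparisons 924 were higher in both, and of the 919 lowered genes 912 were lower in both. The number of calls depended on single libraries, from 393 without the high flow pool IgG 2, 411 without PBS 1 and 494 without IgG 1 to 5659 without the Rbfox2 control culture, and DESeq2 called 3697 genes. Similarity of the libraries was measured as Pearson's r of log2 FPKM with a small offset, across genes, which are not independent replicates. It was 0.842 between the cultures and 0.914 to 0.957 among the high flow pools. From culture to high flow pool it was 0.692 to 0.833, and from culture to the low flow pools 0.832 to 0.864. It moved with read length: the eGFP-sorted culture had 0.843 to 0.866 with the untreated high flow pools of its own read length and 0.902 to 0.912 with the untreated low flow pools, while the Rbfox2 control culture had 0.686 to 0.718 with those high flow pools and 0.796 to 0.81 with the 7 day pools of its own read length.

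One high flow pool, PBS 2, stood apart in the direction of the low flow pools: its similarity to them was 0.898 to 0.927, against 0.776 to 0.862 for the other 3 high flow pools. It held 706 FPKM of mitosis genes where the others held 26.3 to 108 FPKM. Without it, 1488 genes were called.

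The genes that flow controls were compared first, since the cultures had none. Of 10 tested genes of the laminar flow list, 3 fell, 1 rose and 6 did not pass, beside 7.79% lowered and 9.36% raised among all genes tested. Their median log2 fold-change was −0.71 where the median over all genes was −0.05. Klf2 (mm9, chromosome 8, 74842932 to 74845555), the transcription factor that laminar shear induces, was at 9.66 and 50 FPKM in the cultures against 679, 932, 488 and 357 FPKM in the pools, 21.3-fold lower (log2 fold-change −4.41 ± 0.76 SE, edgeR adjusted p = 0.0136). Nos3, the endothelial nitric oxide synthase, was at 18.3 and 46.4 FPKM against 524, 397, 504 and 336 FPKM, 13.3-fold lower (adjusted p = 0.00546). Aqp1, the water channel of arterial endothelium, showed the largest drop of the list, from 433, 313, 143 and 119.5 FPKM in the pools to 0.478 and 1.13 FPKM, 302-fold lower (log2 fold-change −8.24 ± 0.92 SE, adjusted p = 0.00426). Klf4 lay below every pool in both cultures, at 12.4 and 6.37 FPKM against 43.3, 70.9, 27.7 and 19.6 FPKM, but did not pass (adjusted p = 0.0889), and it did with the read length fit (adjusted p = 0.00318). The raised member was Cyp1a1, a xenobiotic-metabolising enzyme induced through the aryl hydrocarbon receptor, with 17.1 and 2.95 FPKM in the cultures and no count in any of the 4 pools, which makes it at least 113-fold higher (floor of 3 counts per library).

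Of 11 receptors and channels named as flow sensors, 1 was raised and 1 lowered, near the 9.36% and 7.79% of all genes tested. Both cultures lay below every pool in 5 of the 11 and above every pool in 1, beside 23.9% and 19.1% of all genes. With the read length fit 1 was raised and 3 were lowered, beside 18.2% and 18.5%. Trpv4, a calcium channel opened by stretch and shear, was at 13 and 20.3 FPKM against 113, 97.8, 114 and 98.9 FPKM, 5.97-fold lower (adjusted p = 0.00655). Sdc4, a heparan sulfate proteoglycan that helps cells align to flow, was 4.23-fold higher (adjusted p = 0.016).

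Most arterial and Notch genes, venous and lymphatic genes, BMP and ALK1 genes and junction genes were not called. The same holds for all genes tested, of which 9.36% were raised and 7.79% lowered. Bmx, a tyrosine kinase of arterial endothelium, was at 26.2 and 49.6 FPKM against 374, 403, 413 and 384 FPKM, 9.91-fold lower (adjusted p = 0.00426), and Hey2, a Notch target, was 3.8-fold lower (adjusted p = 0.0147). Of 17 arterial and Notch genes tested, 2 fell and 1 rose, and the raised one was Unc5b, a netrin receptor of arterial and tip cells, at 17.8 and 23.3 FPKM against 1.17 to 2.37 FPKM. Of 5 venous and lymphatic genes tested, Nrp2 rose and Lyve1 fell, the latter from 19.6 to 35 FPKM in the pools to 0.0846 and 0.39 FPKM in the cultures, 104-fold lower (adjusted p = 0.00346). Of 18 BMP and ALK1 genes, 1 rose and 2 fell (none fell without any 1 of the 4 pools). Id2 rose while Acvrl1, the receptor ALK1, and Chrdl1, a BMP antagonist without a count in either culture, fell. Of 16 junction genes, Cdh2 and Jam3 rose and Jam2, a junctional adhesion molecule, fell 5.97-fold (adjusted p = 0.0175).

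**Figure D4:**
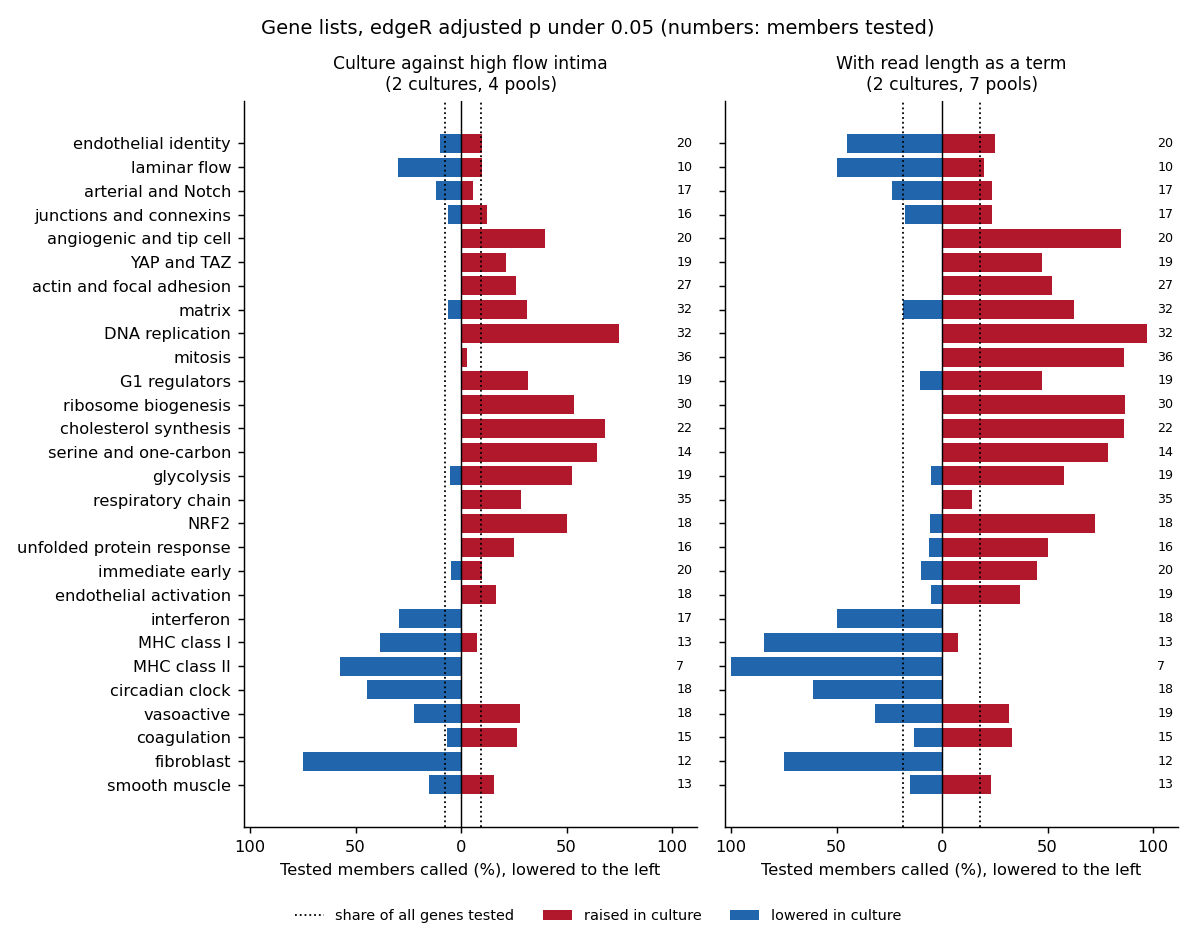
Share of the tested members of 28 gene lists called raised (red, to the right) or lowered (blue, to the left) in culture, for the 6 libraries (left) and with 7 high flow pools and read length as a term (right), with the number of members tested beside each bar and the share of all genes as dotted lines. With the 6 libraries, DNA replication, cholesterol synthesis and serine genes reach furthest to the right. Fibroblast, MHC class II and clock genes reach furthest to the left there. With read length as a term, DNA replication genes reach furthest to the right, and ribosome biogenesis, mitosis and tip cell genes reach further than serine genes. MHC class II genes then reach furthest to the left, followed by MHC class I and fibroblast genes. Mitosis genes reach far only with read length as a term.

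The called genes were then looked up in a comparison of low with high flow between 3 untreated low flow pools and 3 untreated high flow pools, none of which is among the 6 libraries. There, 23.6% of 11236 tested genes were raised and 22.6% were lowered at low flow. Of the 1176 genes raised in culture 1089 could be tested, and 755 of them (69.3%) were raised at low flow, 19 (1.74%) were lowered and 315 were not called, with a median log2 fold-change of 1.23. Of the 978 genes lowered in culture 878 could be tested, and 639 (72.8%) were lowered at low flow, 38 (4.33%) were raised and 201 were not called, with a median of −1.35. The 755 genes were 29.9% of the 2521 genes raised at low flow that were tested in culture, and the 639 were 25.4% of the 2520 that were lowered. Klf2, Aqp1, Bmx and Trpv4 were lowered in both comparisons, by log2 fold-changes of −4.28, −2.17, −1.99 and −1.38 at low flow.

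**Figure D5:**
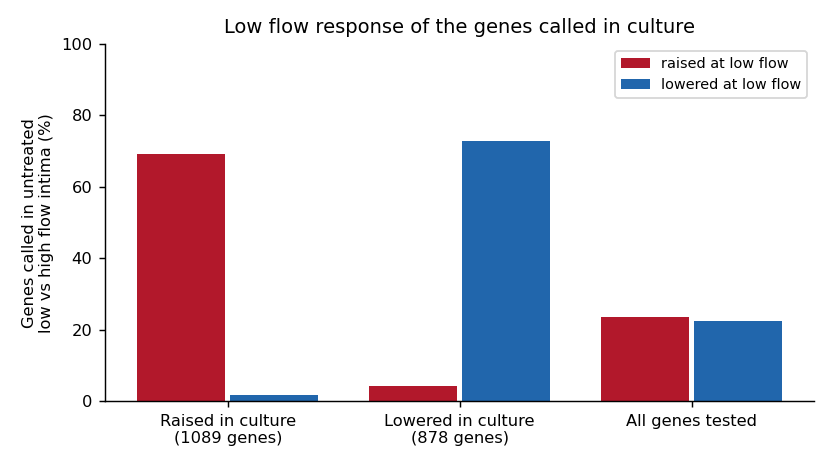
Share of genes called raised (red) or lowered (blue) at low flow in the untreated pools, for genes raised in culture, genes lowered in culture and all genes tested. Genes raised in culture were mostly raised at low flow and genes lowered in culture mostly lowered, where 23.6% and 22.6% of all genes were.

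Of 32 DNA replication genes tested, 24 were raised and none lowered (median log2 fold-change 2.61), and 31 were raised with the read length fit. Rrm2, a subunit of ribonucleotide reductase, was at 159 and 65.7 FPKM in the cultures against 3.44, 1.7, 1.1 and 18.8 FPKM in the pools, 21.7-fold higher (edgeR adjusted p = 0.0315). Tk1, thymidine kinase, was at 150.0 and 33.5 FPKM against 1.02 to 15.5 FPKM, Gins2, part of the replicative helicase, at 103 and 18.1 FPKM against 0.969 to 8.02 FPKM, and Tyms, thymidylate synthase, at 55 and 9.32 FPKM against 1.91 to 6.26 FPKM. Mcm5, a helicase subunit whose promoter is shown above, was 7.12-fold higher (adjusted p = 0.0214), while Mcm6, with 2 E2F matches, stood at 68.5 and 75.1 FPKM against 39.1 to 72 FPKM and did not pass (adjusted p = 0.244). Both genes were shown after their values were seen. The count of 24 depended on single libraries. It was 3 without the eGFP-sorted culture, 1 without IgG 1, 0 without IgG 2 or PBS 1, 25 without PBS 2 and 25 without the Rbfox2 control culture.

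Of 36 mitosis genes tested 1 passed, and the pool PBS 2 held 706 FPKM of them. Their median log2 fold-change was 2.56, and 28 of 36 had both cultures above every pool, beside 19.1% of all genes tested. The gene that passed was Cks2, a small subunit of cyclin-dependent kinases, at 290.1 and 40.5 FPKM against 6.21, 2.67, 0.787 and 21.9 FPKM. Without PBS 2, 30 of 36 passed, and with any other single library left out 0 to 5 did. With the read length fit 31 passed, and in each of the within-read-length comparisons all 36 were raised. Cdk1, the kinase that starts mitosis, was at 103 and 29.3 FPKM against 2.07, 1.14, 0.213 and 13.6 FPKM (adjusted p = 0.0574), and Top2a, topoisomerase II, at 36 and 30.6 FPKM against 0.441 to 15.4 FPKM (adjusted p = 0.101). Of 19 regulators of G1, 6 rose and none fell, beside 9.36% and 7.79% of all genes. With 1 library left out in turn, 3 to 7 rose, and 4 fell without the Rbfox2 control culture. With the read length fit 9 rose and 2 fell, beside 18.2% and 18.5% of all genes. The 6 included drivers of division, Ccnd1 (7.1-fold higher, adjusted p = 0.00426) and Cdk4, as well as inhibitors of it, Cdkn2b and Cdkn1a. Cdkn1a, the p53 target p21, was at 109 and 198 FPKM against 13.2, 26.7, 7.24 and 13 FPKM, 10.6-fold higher (adjusted p = 0.00901). Cdkn1a was not called at low flow (log2 fold-change −0.17, adjusted p = 0.601), whereas all 32 replication and all 36 mitosis genes were raised there.

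Of 20 genes of sprouting and tip cells tested, 8 rose and none fell, at a median log2 fold-change of 3.41, 17 were raised with the read length fit, and 5 to 10 with 1 library left out in turn (10 raised and 2 lowered without the Rbfox2 control culture). Apln (mm9, chromosome X, 45378323 to 45388030), a peptide made by tip cells, was at 10.3 and 57.1 FPKM in the cultures and at 0, 0, 0 and 0.0945 FPKM in the pools, with a fitted log2 fold-change of 10.22 ± 1.10 SE (edgeR adjusted p = 0.00396). Esm1, a proteoglycan of tip cells, was at 21.1 and 16.9 FPKM against 0, 0, 0.0737 and 0.978 FPKM. Fscn1, which bundles actin in filopodia, was at 5.37 and 118 FPKM against at most 0.286 FPKM, and Pgf, placental growth factor, at 134 and 6.27 FPKM against at most 3.64 FPKM. Angpt2, the ligand that opposes TIE2 signalling in quiescent vessels, was at 69 and 38.7 FPKM against 0.473 to 1.58 FPKM (63.6-fold higher, adjusted p = 0.00339), and was named after its value was seen. Of 19 of these genes tested at low flow, 14 were raised and 1 was lowered. The receptor Kdr was at 3.2 and 9.5 FPKM against 0.322 to 3.03 FPKM and did not pass (adjusted p = 0.0914).

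YAP and TAZ are coactivators that respond to a stiff substrate and spread cell shape. Of 19 of their genes, 4 rose and none fell (9 rose with the read length fit, 2 to 5 with 1 library left out in turn, and 2 rose and 2 fell without the Rbfox2 control culture). Ankrd1 (mm9, chromosome 19, 36186455 to 36194334), a target whose promoter is shown above, was at 143 and 268 FPKM in the cultures against 0.1, 0.68, 0.0891 and 0.526 FPKM in the pools, 599-fold higher (log2 fold-change 9.23 ± 0.79 SE, edgeR adjusted p = 0.00314). Ctgf, another target, was called but overlapped with the pools, at 76.6 and 2470.3 FPKM against 62.2, 122, 24.7 and 62.4 FPKM, and Cyr61 did not pass at 766 and 3623 FPKM against 149.7 to 933 FPKM. Nuak2, a kinase, and Tead1, the DNA-binding partner of YAP, were 16.6-fold and 5.31-fold higher (adjusted p = 0.0309 and 0.0102). Yap1 and Wwtr1, the genes of the coactivators, did not pass (adjusted p = 0.931 and 0.765), and Wwtr1 did with the read length fit (log2 fold-change 0.76, adjusted p = 0.013).

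Of 27 actin and focal adhesion genes, 7 rose and none fell, and with the read length fit 14 rose, but without IgG 1, IgG 2 or PBS 1 none did. Without the Rbfox2 control culture 8 rose and 8 fell, and in the within-read-length comparisons 12 rose and 2 fell in the eGFP-sorted culture and 17 rose and 1 fell in the Rbfox2 control culture. Actb was at 15782 and 1412 FPKM in the cultures against 254, 376, 486 and 879 FPKM in the pools, so both cultures lay above the pools although they were far apart from each other. The log2 fold-change was 4.47 and, in the read length fit, 1.63. Tagln2, Cnn2 and Myl9 were 5.41, 5.28 and 5.66-fold higher (adjusted p = 0.0174, 0.0165 and 0.0179).

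Of 32 matrix genes, 10 rose and 2 fell (20 and 6 with the read length fit, 5 and 2 without PBS 2). With 1 library left out in turn, 1 (without IgG 1 or IgG 2) to 14 (without the eGFP-sorted culture) rose and 1 to 9 fell. Loxl2, a collagen crosslinking enzyme, was at 0.931 and 8.87 FPKM against at most 0.905 FPKM, while Col4a5, a basement membrane collagen chain, was at 1.58 and 19.9 FPKM against 0.674 to 1.26 FPKM. Spp1, osteopontin, was 11-fold higher (adjusted p = 0.0274). Timp3, an inhibitor of metalloproteinases, fell 6.46-fold (adjusted p = 0.00873), and Postn, periostin, was at 0.0342 and 0 FPKM against 0.664 to 7.41 FPKM.

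Of 13 smooth muscle genes, 2 rose and 2 fell, beside 9.36% and 7.79% of all genes. With 1 high flow pool left out in turn, 2 rose and 0 or 1 fell, and none fell without IgG 1 or IgG 2. The within-read-length comparisons differed: 3 rose and 6 fell in the eGFP-sorted culture and 5 rose and 2 fell in the Rbfox2 control culture. Tagln was at 442 and 760.0 FPKM in the cultures against 56.8, 63.2, 60.7 and 94.6 FPKM, 9.26-fold higher (adjusted p = 0.00367), and Acta2, smooth muscle actin, at 1172 and 2576 FPKM against 148, 278, 151 and 352 FPKM, 8.35-fold higher (adjusted p = 0.00843). Of the genes that define contractile smooth muscle, Myh11, its myosin, was at 0.0161 and 1.48 FPKM against 1.55 to 3.39 FPKM (adjusted p = 0.282), Des, desmin, was at 0 in both cultures and fell, and Synpo2 fell 8.89-fold (adjusted p = 0.0155). Of 15 genes of mesenchymal transition, 4 rose (among them S100a4, Cdh2 and Tgfb2) and 2 fell (Tgfbi and Tgfbr1). With 1 high flow pool left out in turn, 1 to 3 rose and 0 or 1 fell, and with the read length fit 6 rose and 5 fell. Tgfb2, a TGF-beta ligand, was at 35.6 and 57.4 FPKM against 3.32 to 11.2 FPKM, while the TGF-beta receptor gene Tgfbr1 was 3.56-fold lower (adjusted p = 0.0446). Tgfb2 was not called at low flow (adjusted p = 0.202).

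Of 22 cholesterol synthesis genes tested, 15 rose and none fell (median log2 fold-change 1.99), and 19 rose with the read length fit. In 20 of them both cultures lay above every pool, beside 19.1% of all genes tested. Without IgG 2, PBS 1 or IgG 1 the count was 2, 4 or 5, and without any other library 12 to 17 (17 raised and 1 lowered without the Rbfox2 control culture). Their summed level was 813 and 857 FPKM in the cultures, 177 to 309 FPKM in the high flow pools and 285 to 459 FPKM in the low flow pools. Cyp51 (mm9, chromosome 5, 4081145 to 4104746), which removes the 14-alpha methyl group of lanosterol and whose promoter is shown above, was at 22 and 44.5 FPKM against 2.48, 2.08, 4.08 and 6.43 FPKM, 9.29-fold higher (log2 fold-change 3.22 ± 0.48 SE, edgeR adjusted p = 0.00839). Sqle, squalene epoxidase, was 9.82-fold and Fdps, farnesyl diphosphate synthase, 8.23-fold higher (adjusted p = 0.0311 and 0.00928). Idi1, with its promoter above, was 5.73-fold higher (adjusted p = 0.0269). Srebf2, which encodes the activator of the pathway, spread from 2.68 to 35.3 FPKM in the cultures and did not pass. Idi1 and Srebf2 were named after their values were seen.

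Serine synthesis and one-carbon metabolism, which supply nucleotides and glycine to dividing cells, rose in 9 of 14 genes (none fell), in 2, 3 or 5 without IgG 2, PBS 1 or IgG 1, and in 7 to 10 without any other library. Phgdh (mm9, chromosome 3, 98117093 to 98143913), the enzyme that commits glycolytic carbon to serine, was at 114 and 74 FPKM in the cultures against 4.15, 1.49, 3.39 and 6.29 FPKM in the pools, 28.6-fold higher (log2 fold-change 4.84 ± 0.57 SE, edgeR adjusted p = 0.00453). Psat1 and Asns were at 101 and 119 FPKM in the eGFP-sorted culture and at 44.5 and 43.3 FPKM in the Rbfox2 control culture, against at most 7.37 and 3 FPKM in the pools. Aldh1l2, a mitochondrial folate enzyme, was at 0.531 and 1.72 FPKM against at most 0.0368 FPKM.

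Of 19 glycolysis genes, 10 were raised and 1 lowered. The count raised was 1 without IgG 2, 3 without IgG 1 or PBS 1, and 7 without PBS 2. Without any 1 of these 4 pools none was lowered. Pgk1, Eno1 and Gapdh, enzymes of the later steps of the pathway, were 10, 5.97 and 4.95-fold higher (adjusted p = 0.012, 0.00843 and 0.00995), and Slc16a3, a lactate exporter, 3.91-fold (adjusted p = 0.0393). The lowered member was Pfkfb3, which makes the activator of phosphofructokinase, at 2.86 and 8.69 FPKM against 32.6, 17.8, 21.3 and 17.1 FPKM, 3.79-fold lower (adjusted p = 0.0349). Ribosome biogenesis genes were raised in 16 of 30 and lowered in none (26 with the read length fit, 8 without the eGFP-sorted culture and 1 without IgG 1, IgG 2 or PBS 1). Nhp2, Npm1 and Mrto4 were 14.6, 12 and 10.2-fold higher (adjusted p = 0.017, 0.0182 and 0.021), and the eGFP-sorted culture was the higher culture in each, with Npm1 at 1828 and 288 FPKM against 99.8 to 119 FPKM. Nop58, a small nucleolar RNA-binding protein, was closer between the cultures, 127 and 91.1 FPKM against 14.8 to 24.5 FPKM (6.33-fold higher, edgeR adjusted p = 0.0076). The ribosome biogenesis list summed to 967 to 1035 FPKM in the untreated high flow pools of 100 bp reads. In the IgG and PBS high flow pools of 150 bp reads it summed to 430.2 to 649 FPKM.

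The respiratory chain was a list where the calls differed between the fits, which change read length and the libraries compared together. Of 35 genes, which are short (median effective length 796 bases), 10 rose and none fell, with a median log2 fold-change of 1.87. Without PBS 2, 1 gene was called raised, and without IgG 1, IgG 2 or PBS 1 none was. For the member Ndufa2 the log2 fold-change was 0.27 without the eGFP-sorted culture and 3.93 without the Rbfox2 control culture. With the read length fit 5 rose and the median was 0.21, and within 1 read length 3 rose and 1 fell in the eGFP-sorted culture while 3 rose and 12 fell in the Rbfox2 control culture. Ndufa2, a complex I subunit, was at 293 and 31.7 FPKM in the cultures against 29.8, 18.7, 20.2 and 30.9 FPKM in the 150 bp pools, and 8.26-fold higher by the test (adjusted p = 0.0374) but not with the read length fit (log2 fold-change 0.34, adjusted p = 0.242). Ndufa4 and Cox7a2 followed the same pattern (adjusted p = 0.365 and 0.233 in the read length fit), and Cox5a kept its call (log2 fold-change 0.77, adjusted p = 0.00608).

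Of 13 genes for the uptake of fatty acids 2 rose and 2 fell, beside 9.36% and 7.79% of all genes (1 rose and none fell without IgG 1, IgG 2 or PBS 1, and 1 rose and 1 fell without PBS 2). Fabp5, a fatty acid-binding protein, rose 6.14-fold (adjusted p = 0.0105) and Slc27a3 rose 4.51-fold, while Lpl, lipoprotein lipase, was at 0.0267 and 0.616 FPKM against 3.35 to 8.29 FPKM and Cav2, a caveolin, fell 2.67-fold (adjusted p = 0.0414).

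Genes of the oxidative stress response controlled by NRF2 rose in 9 of 18 and fell in none (13 and 1 with the read length fit). Hmox1 (mm9, chromosome 8, 77617490 to 77624495), heme oxygenase 1, was at 659 and 106 FPKM in the cultures against 1.48, 4.26, 5.15 and 5.46 FPKM in the pools, 117-fold higher (log2 fold-change 6.87 ± 0.88 SE, edgeR adjusted p = 0.00602). Slc7a11, the cystine importer, was at 15.5 and 1.44 FPKM against at most 0.102 FPKM, and Pgd and Taldo1 of the pentose phosphate pathway were 5.88 and 6.37-fold higher (adjusted p = 0.017 and 0.0319). The eGFP-sorted culture held more of the list, 6219.7 FPKM in sum against 1627 FPKM, and without it 3 of the 18 passed, while without the Rbfox2 control culture 12 rose and 2 fell. Without IgG 1, IgG 2 or PBS 1, 1 or 2 of the 18 rose. The eGFP-sorted culture is also the one of 100 bp reads. In fresh high flow intima the list summed to 2276 to 2732 FPKM in the untreated pools of 100 bp reads. It summed to 792 to 1175 FPKM in the IgG and PBS pools of 150 bp reads. The part of read length in the difference between the cultures was not tested. Of 16 genes of the unfolded protein response, 4 rose and none fell (Sesn2, Manf, Sdf2l1 and Atf4), and 0 to 7 rose with 1 library left out in turn (7 rose and 1 fell without the Rbfox2 control culture). Of 20 immediate early genes, which respond within minutes to handling and serum, Fos and Ier3 rose and Klf10 fell. Among all genes tested 9.36% were raised and 7.79% lowered. With 1 high flow pool left out in turn, 2 or 3 rose, and none fell without IgG 1, IgG 2 or PBS 1. Fos was at 108 and 139 FPKM against 4.89, 3.09, 4.48 and 11.8 FPKM, 22.3-fold higher (adjusted p = 0.00451).

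Of 18 genes of endothelial activation, 3 rose and none fell, beside 9.36% and 7.79% of all genes. With 1 high flow pool left out in turn, 3 or 4 rose and none fell. Ccl2, which attracts monocytes, was at 199 and 275 FPKM in the cultures against 0.615, 0.222, 0.654 and 2.04 FPKM in the pools, 286-fold higher (log2 fold-change 8.16 ± 0.70 SE, edgeR adjusted p = 0.00314). Ptgs2, cyclooxygenase 2, was 11.1-fold and Cxcl2, a neutrophil chemokine, 10.7-fold higher (adjusted p = 0.00339 and 0.0148). The adhesion molecules Vcam1 (759 and 359 FPKM against 433 to 729 FPKM), Icam1 and Sele, E-selectin, did not pass (adjusted p = 0.77, 0.187 and 0.129).

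Of 13 genes of MHC class I and its loading machinery, 5 fell and 1 rose (11 and 1 with the read length fit). None fell without IgG 1, IgG 2 or PBS 1, 2 fell without PBS 2, and 3 rose and 6 fell without the Rbfox2 control culture. H2-D1, a classical class I gene, was at 780.4 and 510.2 FPKM against 3059.8, 2209, 2682 and 3472 FPKM, 3.84-fold lower (adjusted p = 0.027), and reads may be shared among class I genes of near-identical sequence. The peptide transporter Tap2, its partner Tapbp and the trimming peptidase Erap1 were 3.61, 3.55 and 2.77-fold lower (adjusted p = 0.0189, 0.0211 and 0.0386). The raised member was Calr, calreticulin, a general chaperone. Of 17 interferon genes, 5 fell and none rose (1 to 9 fell with 1 library left out in turn, and 1 rose without the Rbfox2 control culture). Gbp2, a guanylate-binding protein, was at 6.13 and 5.77 FPKM against 78.8, 55.1, 70.3 and 125 FPKM, 12.3-fold lower (adjusted p = 0.0068). MHC class II genes, which macrophages and dendritic cells express most, fell in 4 of 7 (all 7 with the read length fit, 0 or 1 without IgG 1, IgG 2 or PBS 1). H2-Aa was at 0.563 and 0 FPKM against 22.8, 13.6, 14.1 and 52.5 FPKM, and the summed list at 14.1 and 7.9 FPKM against 77.6 to 306 FPKM. In the low flow pools the class II list summed to 360.5 to 1869 FPKM and the macrophage list to 1359 to 2388 FPKM, and all 7 genes were raised at low flow and lowered in culture against low flow. The part of immune cells in these values was not tested.

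Of 18 clock genes tested, 8 fell and none rose (11 and none with the read length fit, and 1 fell without IgG 1, IgG 2 or PBS 1) (median log2 fold-change −1.92), and their summed level was 77.6 and 186 FPKM in the cultures against 463 to 589 FPKM in the pools. The members that fell most were outputs and repressors. Dbp, an output of the clock, was at 3.26 and 4.66 FPKM against 82.5, 24.6, 71.9 and 101 FPKM, 16.3-fold lower (log2 fold-change −4.02 ± 0.64 SE, edgeR adjusted p = 0.0104), and Tef, its relative, was 10.3-fold lower (adjusted p = 0.0166). Per2 was at 0.293 and 1.95 FPKM against 21.1, 30.4, 15.5 and 7.67 FPKM, 17.1-fold lower (adjusted p = 0.0222). Arntl, the activator BMAL1 that peaks at the opposite time of day, stood at 2.45 and 8.69 FPKM against 2.89 to 4.42 FPKM and did not pass (adjusted p = 0.361). The hour of collection is not given in the sources used here, so time of day and culture cannot be told apart. At low flow, 12 of 16 clock genes were lowered and none raised.

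Of 18 genes that set vessel tone, 5 rose and 4 fell, beside 9.36% and 7.79% of all genes. With 1 high flow pool left out in turn, 4 rose and 2 to 4 fell. Adm, adrenomedullin, was at 29.4 and 111 FPKM in the cultures against 1.58, 0.594, 1.75 and 0.459 FPKM in the pools, 63.6-fold higher (edgeR adjusted p = 0.00426), and its receptor component Ramp2 was at 251 and 174 FPKM against 1579, 1160.3, 1140.0 and 1019 FPKM, 5.05-fold lower (adjusted p = 0.0187). Edn1, the vasoconstrictor endothelin 1, was 7.1-fold higher (adjusted p = 0.00979) and Ddah1, which degrades an inhibitor of nitric oxide synthase, 11.9-fold higher (adjusted p = 0.00451). The cyclooxygenases moved in opposite directions. Ptgs1 was at 13.7 and 11.7 FPKM against 348, 314, 295 and 288 FPKM, 21.9-fold lower (adjusted p = 0.00346), while Ptgs2 was at 18.3 and 43.3 FPKM against 2.48 to 3.12 FPKM. Ace, angiotensin-converting enzyme, was 14.9-fold lower (adjusted p = 0.0288).

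Of 15 coagulation genes, 4 rose and 1 fell, beside 9.36% and 7.79% of all genes. With 1 high flow pool left out in turn, 0 to 3 rose and 0 or 1 fell. Procr, the protein C receptor, was at 1688 and 829 FPKM against 181, 188, 238 and 385 FPKM (6.01-fold higher, edgeR adjusted p = 0.0175), and Tfpi, tissue factor pathway inhibitor, rose 2.97-fold (adjusted p = 0.0316). F5, coagulation factor V, was at 0.043 and 0.17 FPKM against 1.13 to 6.7 FPKM. Thbd, thrombomodulin, did not pass (adjusted p = 0.227).

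Hox genes record position along the body axis. Hoxb9 (mm9, chromosome 11, 96132771 to 96137909) was at 9.17 and 8.5 FPKM in the cultures and had no count in any of the 4 high flow pools, which makes it at least 101-fold higher (floor of 3 counts per library, edgeR adjusted p = 0.00603). It was also at 0 in all 4 low flow pools and at 27.9 to 33.3 FPKM in the 4 libraries of the aortic cell line. All 39 Hox genes were examined, and split by paralogue number, after this value had been seen. Of 10 tested genes with paralogue numbers from 5 to 13, 8 rose and none fell, and of 8 tested genes with numbers from 1 to 4, none rose and 1 fell. With the read length fit, 9 of 10 of the higher numbers rose and none fell, and of 7 of the lower numbers 1 rose and 2 fell. Both cultures lay above every pool in 13 of the 27 genes with higher and 4 of the 12 with lower numbers, tested or not, beside 19.1% of all genes tested. Hoxb7 was at 24.4 and 21.5 FPKM against 0.0723, 0.0653, 0.449 and 0 FPKM, 166-fold higher (adjusted p = 0.00623), and Hoxa7, Hoxa9, Hoxa10, Hoxb5, Hoxb6 and Hoxd8 were 4.6-fold to 82.9-fold higher. Hoxa2 was at 0.813 and 3.31 FPKM against 10.5, 8.08, 14.1 and 9.65 FPKM, 5.07-fold lower (adjusted p = 0.0345). The cultures came from the aorta and the pools from the carotid artery, and artery and culture cannot be told apart here, for these genes or for the others.

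The 10 genes that rose most, among those with a mean of at least 1 FPKM in the cultures and no overlap, included several with no count in any high flow pool: Cyp1a1 (at least 113-fold), Slc1a6, a glutamate transporter (at least 129-fold), Hoxb9, Wwc1, an upstream part of the Hippo pathway (at least 116-fold), and Rnase1, a ribonuclease secreted by endothelium (at least 45.1-fold). Prnd, which encodes the prion-like protein doppel, was at 9.59 and 83.4 FPKM against 0, 0, 0 and 0.0339 FPKM, with a fitted log2 fold-change of 11.69 ± 1.06 SE (edgeR adjusted p = 0.00332). Rgs16, a regulator of G protein signalling, was at 2.61 and 52.4 FPKM against at most 0.0324 FPKM, and Sema3e, a repulsive guidance cue, at 0.543 and 10.8 FPKM against at most 0.0109 FPKM. Msmp stood at 11.3 and 15.8 FPKM against at most 0.0204 FPKM. Apln was the remaining gene of the 10.

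Of the 10 genes that fell most, 8 had no count in either culture. Alas2, the heme synthesis enzyme of red cells, was at 0 in both cultures and at 26.4, 39.6, 16.7 and 99 FPKM in the pools, at least 321-fold lower, and Hbb-b2, a beta globin, was at 1.56 and 0.0781 FPKM against 395 to 2431 FPKM. Cidec and Thrsp of fat cells were at 0 in both cultures, at least 50.5-fold and 89.7-fold lower. Scara5, a ferritin receptor, and Smoc2, a matrix protein, were at 0 as well (at least 49.1-fold and 47.4-fold lower). The others were Stk32b, a kinase (6.05 to 11.8 FPKM in the pools, at least 110.3-fold lower), Tmem56 (at least 65.5-fold lower), Ret, a receptor tyrosine kinase (0.533 to 4.95 FPKM in the pools, at least 87.3-fold lower), and Serpina1b, an antitrypsin gene at 13.1, 15.6, 32.5 and 26 FPKM in the pools and 0.0163 and 0 FPKM in the cultures, whose reads may be shared with close paralogues.

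Against low flow intima fewer genes were called than against high flow intima, but the order of these counts turned without the eGFP-sorted culture. Counts of calls depend on the spread within each fit, so they do not show that fewer genes differed. With the same 2 cultures and 4 low flow pools (IgG or PBS liposomes, sequenced in another run per the file headers), 433 of 12829 genes (3.38%) were raised and 672 (5.24%) lowered, and 3052 had an unadjusted p under 0.05. The comparison shares its cultures with the first, so the 2 are given side by side without a measure of their likeness. No DNA replication gene and no mitosis gene was called in either direction, with median log2 fold-changes of 0.08 and 0.47, and none of the ribosome biogenesis, glycolysis or clock genes was called. Cholesterol synthesis genes were raised in 10 of 22, among them Cyp51 (log2 fold-change 2.07, edgeR adjusted p = 0.0193). Ccl2 (log2 fold-change 3.86, adjusted p = 0.00408), Hmox1 (3.98, adjusted p = 0.0155) and Cdkn1a (2.11, adjusted p = 0.00782) were also higher than at low flow, as were the Hox genes Hoxb7 and Hoxb9 (adjusted p = 0.00423 and 0.00484). Tek (log2 fold-change −1.72, adjusted p = 0.0366), Aqp1 (−5.35, adjusted p = 0.00532) and Ptgs1 (−1.92, adjusted p = 0.0344) were lower than at low flow, where they already stood below high flow. Neutrophil genes fell in all 8 members tested and macrophage genes in 6 of 14.

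Levels in the other cultures were set beside these without a test, since each is 1 library. The Rbfox2 EC-KO culture, whose endothelial Rbfox2 is deleted, was much like the control culture (Pearson's r of log2 FPKM across genes 0.967). Rbfox2 itself was at 0.675 FPKM there, at 5.57 and 9.33 FPKM in the eGFP-sorted and Rbfox2 control cultures and at 4.41, 4.18, 2.74 and 3.11 FPKM in the high flow pools. It was 2.18-fold higher in culture and did not pass (edgeR adjusted p = 0.0707), and did with the read length fit (log2 fold-change 1.07, adjusted p = 0.00492). Rbfox1 and Rbfox3 were at 0 in the cultures. Of 23 splicing regulators tested, Hnrnpa1 and Ptbp1 rose and none fell, beside 9.36% raised and 7.79% lowered among all genes tested. With 1 high flow pool left out in turn, 0 or 1 rose and none fell. Ptbp1 stood at 55.3 to 61.2 FPKM in the pools and at 81.4 and 155 FPKM in the cultures (2.11-fold higher, edgeR adjusted p = 0.0452). The aortic cell line, which was derived from such cells with a switched-off SV40 T antigen, had lost much of the endothelial list, with 216 to 444 FPKM in sum in its 4 libraries against 3866 and 4984 FPKM in the primary cultures. Its DNA replication genes summed to 2273 to 2800.1 FPKM, against 802 and 1738 FPKM in the primary cultures.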

How the data were processed

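RNA from sorted primary cultures and from flushed intima was sequenced after low input amplification. The authors aligned the reads to mm9 (STAR 2.5.1b and RSEM 1.2.15 are named in the submitters' processing notes and methods, with the version given for the 150 bp reads) and deposited RSEM expected counts per gene, which need not be whole. Of 204 deposited value columns 24 were used and 180 were not. One entry without a gene name (0 to 0.117% of the counts of a library) was left out, leaving 21674 genes.

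Expected counts were rounded, and both runs of the eGFP-sorted culture were added. Genes were filtered with filterByExpr, scaled by TMM and compared by edgeR 4.0.16 (R 4.3.3) in a quasi-likelihood fit of the libraries compared, with Benjamini-Hochberg adjustment over all genes tested and a threshold of 0.05. FPKM was computed as count over effective length and library total. A bound on a fold-change uses a floor of 3 counts per library and covers counting error only. DESeq2 1.42.0, other scalings, no filter, read length as a term, other reference pools and each library left out were alternatives. The code was tested on simulated data.

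The members and gene lists were chosen with earlier results of these data known. Named are, for each list, at most 4 raised and 4 lowered genes with the largest change among those called without overlap, the sort and Cre driver genes, the Rbfox genes and members that complete a count. Over all genes, the 10 with the largest rise and the 10 with the largest fall are named too. Genes outside this rule (among them Erg, Vwf, Lyz2, C1qb, Klf4, Kdr, Cdk1, Top2a, Ctgf, Arntl and Thbd) were named after their values were seen. Hmgcs1, Piezo1, Piezo2, Ly6g and Myl12a are listed but not analysed here. Promoter sequence is from RefSeq (GRCm38.p6). Some genes of the lists enter the counts but are not reported here by name.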

Additional observations from a re-analysis of the deposited data

Results flagged for a closer look

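Single high flow pools stood far from the other 3 in several of the 169 genes and 43 list sums examined. The measure was Dixon's ratio of the gap to the range at its 95% critical value, which chance passes in about 1 of 20 groups. Some of the flags are therefore expected by chance. The pool PBS 2 was highest for Top2a (0.885), Cdk1 (0.862), Rrm2 (0.868), Tyms (0.889), Tagln (0.830), S100a4 (0.849), Esm1 (0.925) and Sdf2l1 (0.899). It was also the pool that held the only counts of Apln (1.000), Prnd (1.000) and Rgs16 (1.000), and it was highest in the sums of DNA replication (0.852) and mitosis genes (0.880). PBS 1 was the lowest for Lpl (0.860), the highest for Hoxb7 (0.839) and the only pool with Aldh1l2 (1.000), and it stood apart in the immediate early sum (0.962). IgG 2 held the only counts of Sema3e (1.000) and stood apart in the sums of arterial and Notch genes (0.855), junction genes (0.906) and neutrophil genes (0.890).

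Some genes moved in opposite directions in the 2 within-read-length comparisons, and the difference was not tested. Lyz2 had a log2 fold-change of −5.68 in the eGFP-sorted culture and 2.40 in the Rbfox2 control culture, and C1qb −9.69 and 1.41. Ndufa2 had 0.34 and −1.17, Cox7a2 0.29 and −0.92, and Vcam1 0.26 and −0.47. Each culture is 1 library, and genotype, sort, days in culture, read length and reference pools differ between the comparisons.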

How the results depend on the processing

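No paired analysis was possible because the cultures carry no replicate numbers that the pools share. Culture against high flow intima called 2154 genes, and 3697 with DESeq2, 4842 with read length as a term, 5216 for the eGFP-sorted culture against untreated pools and 4791 for the Rbfox2 control culture against 7 day pools. Leaving out 1 library gave 393 to 5659 calls. Culture against low flow intima called 1105 genes, 2248 with DESeq2 and 325 to 5299 with 1 library left out. Low against high flow called 5195 and 4151 to 5411. RLE scaling moved the median of all genes by 0.14, with 61.3% of calls raised against 54.6%. Of 169 genes named, 74, 82, 70 and 23 lost their call without IgG 1, IgG 2, PBS 1 and PBS 2, 39 without the eGFP-sorted and 12 without the Rbfox2 control culture, 4 with read length as a term and none of 166 with DESeq2; the cause was not tested. Directions (log2 fold-change) turned for genes that had not been called: Erg 0.05 (RLE) and 0.04 (DESeq2), with −0.35 to 0.21 over the libraries left out. Lyz2 turned to −0.09 (read length), −5.68 (untreated pools) and −0.26 (EC-KO added), with −6.08 to 1.30 over the libraries left out, and C1qb to 1.41 (7 day pools). Srebf2 had −1.49 to 1.78 and Arntl −0.16 to 1.21 over the libraries left out. Yap1 turned to 0.05 (RLE and DESeq2), 0.20 (read length), 0.47 (7 day pools) and 0.26 (EC-KO added), with −0.72 to 0.41 over the libraries left out. Wwtr1 turned to 0.76 (read length), 0.97 (untreated pools), 0.89 (7 day pools) and 0.11 (EC-KO added), with −1.69 to 0.48 over the libraries left out. Vcam1 turned to −0.02 (library totals), −0.17 (read length), −0.47 (7 day pools) and −0.00 (EC-KO added), with −0.74 to 0.79 over the libraries left out. Of called genes, Ndufa2 (−1.17), Ndufa4 (−1.02) and Cox7a2 (−0.92) turned in the Rbfox2 control culture against 7 day pools. Cdkn1a at low flow had −0.32 to 0.04 over the libraries left out. With 2 cultures of different read length, a gene that missed the threshold was not shown to be equal.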
